A study of Mus musculus with 43 samples.

Results

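The genes described here are 8 mouse members of the small proline-rich (Sprr) family: Sprr1a, Sprr2a1, Sprr2a2, Sprr2a3, Sprr2b, Sprr2d, Sprr2f and Sprr2h. They were taken by symbol from every table of the study that names genes. Of the 8 genes, 7 had a row among the 23951 genes of the bulk RNA tables, where Sprr2a3 was not listed, and all 8 had a row among the 54307 genes of the single-cell matrices. The bulk tables held 15 rows whose symbol begins with Sprr. Which values led to the choice of these 8 is not recorded, so every contrast of the members is given as a description, without a p-value.

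SPRR proteins are small, proline-rich precursors of the cornified envelope, the cross-linked protein layer beneath the surface of stratified squamous cells such as those of skin. Transglutaminases join them to loricrin, involucrin and other envelope proteins through glutamine and lysine residues. The genes lie together on chromosome 3 in the epidermal differentiation complex, beside genes for loricrin, late cornified envelope proteins and S100 proteins. In the gut, which is lined by a simple epithelium, Sprr2a is known as a gene of villus cells that responds to bacteria and whose protein acts against Gram-positive bacteria. Sprr1a is known as a gene induced by injury, for example in nerve cells that regrow their axons.

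The study used primary intestinal organoids, 3-dimensional cultures of gut epithelium, from wild-type C57BL/6 mice, and crypt cells sorted from mice. For bulk RNA sequencing, organoids received 2 ng/mL TGFB1, a cytokine that signals through SMAD proteins, or vehicle on day 6 for 24 h. They were collected on day 7 without irradiation, on day 7 after 4 Gy on day 4, or on day 11 after 4 Gy on day 4, with 3 libraries per group. For single-cell sequencing, organoids irradiated with 4 Gy on day 4 and collected on day 8 were exposed to TGFB1 at 1 ng/mL during the last 6, 15 or 24 h, with 1 library per time, and a 24 h vehicle library is called 0 h here. The mouse cells came from crypts of the proximal part of the small intestine of Mki67tm1.1Cle/J mice, in which red fluorescent protein marks cells that make Ki67, a protein of dividing cells. Ki67-RFP+ DAPI- cells were sorted from 1 non-irradiated littermate library and from 2 libraries at 56 h after 12 Gy whole-body irradiation. Non-irradiated crypts passed a finer strainer than irradiated crypts.

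The bulk values were FPKM, which are scaled to gene length and library size, and the libraries had 11040 to 11361 genes above 1 FPKM. Smad7, a direct target of TGFB1 signalling, lay at 2.33 to 3.69 FPKM in the vehicle libraries and at 5.10 to 21.5 FPKM in the TGFB1 libraries. The single-cell libraries held 699 to 4283 cells after filtering, 15587 in all, with medians of 6709 to 14399 unique molecular identifiers (UMIs) per cell. Proliferation markers summed to 1214 to 1389 CPM (UMIs scaled to the library total) in the sorted crypt libraries and to 617 to 984 CPM in the organoid libraries. No 2 libraries shared more than 1 cell barcode.

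The promoters of 4 members are shown because they separate the family into sequence groups that the expression values below can be set against. Each line gives the 250 bases before the RefSeq transcription start (GRCm38.p6), 5′ to 3′ on the gene's own strand. Capitals mark 3 motifs. TGANTCA is bound by AP-1, pairs of Fos and Jun proteins. The octamer ATTTGCAT is bound by POU proteins. The element TATAAA positions the start of transcription. The windows lie at chr3:92485882-92486131 (minus strand) for Sprr1a, and on the plus strand at chr3:92215585-92215834 for Sprr2a1, chr3:92338890-92339139 for Sprr2d and chr3:92364937-92365186 for Sprr2f.
Sprr1a: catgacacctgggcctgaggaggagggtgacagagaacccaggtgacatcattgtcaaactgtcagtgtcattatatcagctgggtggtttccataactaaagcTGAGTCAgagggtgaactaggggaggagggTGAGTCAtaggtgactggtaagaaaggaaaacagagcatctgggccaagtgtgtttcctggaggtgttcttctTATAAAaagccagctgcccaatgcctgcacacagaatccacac
Sprr2a1: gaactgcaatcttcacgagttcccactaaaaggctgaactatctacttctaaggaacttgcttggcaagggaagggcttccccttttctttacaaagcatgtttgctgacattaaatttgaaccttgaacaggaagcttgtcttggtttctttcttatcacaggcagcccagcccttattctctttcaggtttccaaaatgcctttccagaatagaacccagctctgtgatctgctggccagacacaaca
Sprr2d: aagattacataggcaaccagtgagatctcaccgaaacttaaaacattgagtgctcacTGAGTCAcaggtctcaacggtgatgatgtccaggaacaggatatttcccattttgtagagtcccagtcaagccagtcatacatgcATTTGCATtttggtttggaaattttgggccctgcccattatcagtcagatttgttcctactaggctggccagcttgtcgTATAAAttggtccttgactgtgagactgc
Sprr2f: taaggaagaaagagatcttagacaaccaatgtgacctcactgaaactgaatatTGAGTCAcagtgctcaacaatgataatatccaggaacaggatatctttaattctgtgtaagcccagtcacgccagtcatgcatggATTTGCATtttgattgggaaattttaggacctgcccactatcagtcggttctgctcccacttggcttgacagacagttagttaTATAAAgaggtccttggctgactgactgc

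Motifs were searched on both strands from 250 bases before to 50 after the start, in the 8 members and in all 32851 windows of that length in the RefSeq table. No motif match in the capitals above overlaps another. The AP-1 letters occurred in 5 of the 8 members and in 7.81% of all windows. Sprr1a held TGAGTCA at positions -146 and -116 relative to the start, and Sprr2b, Sprr2d, Sprr2f and Sprr2h each held it once, at -195, -193, -197 and -198. The octamer occurred in the same Sprr2b, Sprr2d, Sprr2f and Sprr2h, at -108 to -112, and in 1.74% of all windows. TATAAA occurred in these genes and in Sprr1a, 5 of 8, and in 13.6% of all windows. None of the 3 motifs was present in the windows of Sprr2a1, Sprr2a2 or Sprr2a3.

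CAGACA, letters that SMAD proteins bind, was found in 4 of 8 members (Sprr2a1, Sprr2a2, Sprr2a3 and Sprr2f) and in 21.0% of all windows. The Sprr2a matches, at -11, -11 and 17, are copies of the same site in shared sequence. Because members share sequence, their matches to any motif here are not independent, and the counts of 8 show no enrichment over all windows. GGAATG, the core of TEAD sites, was in 0 of 8 and in 14.7% of all windows, and GGAA, the core of ETS sites, was in 8 of 8 and in 96.0%. The octamer was added to the search after the windows had been read.

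The Sprr2a copies could not be told apart by their promoters. Sprr2a1 and Sprr2a2 were identical over all 300 bases, and Sprr2a3 shared 272 consecutive bases with both. Sprr2b, Sprr2d, Sprr2f and Sprr2h were 64.0 to 74.8% identical to each other when aligned, while Sprr1a was 51.7 to 53.5% identical to the other 7. Sprr2a1 and Sprr2b shared an 18-base stretch that began at position 5 in Sprr2a1 and at -80 in Sprr2b, so their annotated starts do not lie at the same point of the shared sequence. Bases of Sprr2a1 that line up with TATAAA of Sprr2b, at -29, may thus lie beyond the searched window. The absence of TATAAA from the Sprr2a windows holds for the annotated starts only. Chromatin accessibility at these promoters was not analysed here.

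In the bulk libraries Sprr2a3 had no row, and reads of the near-identical Sprr2a copies can be lost or split. Among the 7 members with a row, Sprr1a had the highest FPKM and was higher with TGFB1 in all 3 conditions. On day 7 without irradiation it was at 84.5, 87.3 and 88.0 FPKM with vehicle and at 624, 703 and 605 FPKM with TGFB1, a 7.44-fold difference of means. The log2(FPKM + 1) change was 2.88 ± 0.05 (SE), the 46th highest rise among 11330 genes tested. After irradiation Sprr1a was at 153, 158 and 174 FPKM with vehicle and 528, 506 and 546 FPKM with TGFB1 on day 7, a 3.25-fold difference and a log2 change of 1.70 ± 0.05 (SE). On day 11 it was at 72.2, 118 and 142 FPKM with vehicle and 597, 617 and 514 FPKM with TGFB1, a 5.20-fold difference and a log2 change of 2.42 ± 0.23 (SE). The TGFB1 and vehicle libraries did not overlap in any condition.

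Relative to its size, the vehicle level of Sprr1a differed more between conditions than the TGFB1 level, although the TGFB1 means spanned more FPKM. With vehicle the order was day 7 without irradiation (86.6 ± 1.84 FPKM, SD, n = 3), day 11 irradiated (111 ± 35.5) and day 7 irradiated (162 ± 11.1). The first pair overlapped, and the irradiated day 7 libraries lay above both. With TGFB1 the order was day 7 irradiated (526 ± 20.1), day 11 irradiated (576 ± 54.8) and day 7 without irradiation (644 ± 51.9), and neighbours in this order overlapped. The 3 conditions were deposited as separate tables, so levels across them rest on each table's own scaling. In bulk RNA, more cells making a gene and more RNA per cell cannot be told apart.

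Sprr2f had a larger relative change than Sprr1a without irradiation and none in the same direction on day 11. On day 7 without irradiation it was at 3.08, 3.24 and 2.09 FPKM with vehicle and at 57.2, 61.2 and 51.9 FPKM with TGFB1, a 20.3-fold difference and a log2 change of 3.94 ± 0.12 (SE), the 16th highest rise. On day 7 after irradiation it was at 10.6, 6.69 and 8.36 FPKM with vehicle and at 25.9, 23.9 and 22.7 FPKM with TGFB1, 2.82-fold and a log2 change of 1.41 ± 0.14 (SE). On day 11 it was at 2.23, 6.20 and 2.99 FPKM with vehicle and at 1.56, 3.27 and 0.908 FPKM with TGFB1, groups that overlap, with a log2 change of -0.72 ± 0.41 (SE). This value was not called, ranged from -1.04 to -0.38 when single libraries were left out, and was called without TGFB1 replicate 2 (-1.04) and with replicate numbers as a block. The TGFB1 level of Sprr2f therefore fell into 3 ranges that did not overlap, highest without irradiation and lowest on day 11. Its vehicle level on day 11 overlapped that of day 7 without irradiation, and the irradiated day 7 vehicle libraries lay above both.

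**Figure D1:**
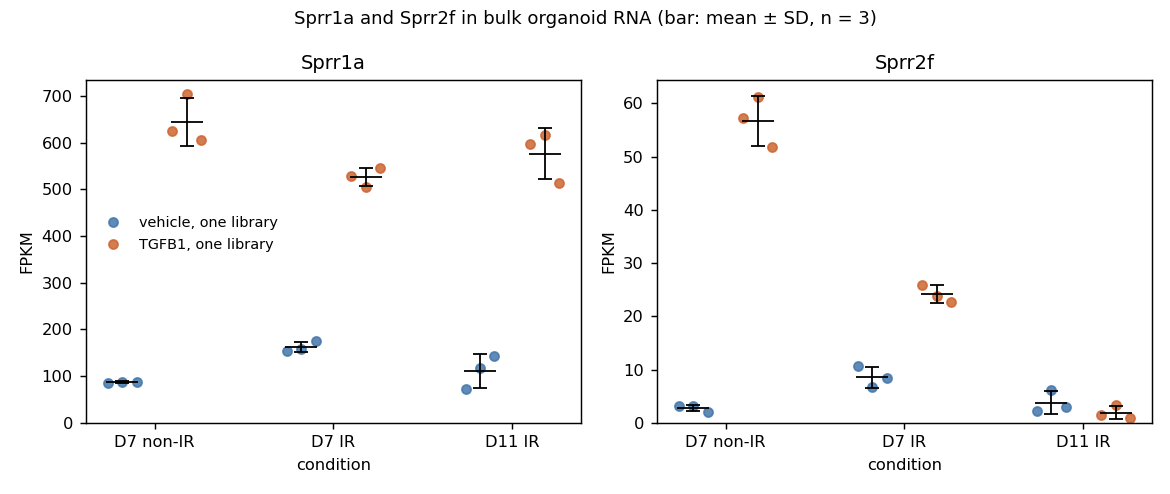
Sprr1a and Sprr2f FPKM in each of the 18 bulk libraries, by condition and treatment; points are libraries, and bars are the mean ± SD of 3. Sprr1a lies at 506 to 703 FPKM with TGFB1 in all 3 conditions, while Sprr2f with TGFB1 goes from 51.9 to 61.2 FPKM without irradiation to 0.908 to 3.27 FPKM on day 11.

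The effect of TGFB1 on both genes differed in size between conditions, in the same model fitted to 12 libraries at a time. For Sprr1a the difference of log2 changes was -1.18 ± 0.08 (SE) for irradiated against non-irradiated organoids on day 7, and 0.72 ± 0.26 (SE) for day 11 against day 7 after irradiation. For Sprr2f these were -2.52 ± 0.21 (SE) and -2.13 ± 0.49 (SE). The day term of Sprr1a rested on individual libraries: it lay between 0.44 and 0.93 when single libraries were left out, and quantile normalization gave 1.09.

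Calls were common in these tables. At an adjusted p of 0.05 by limma, 68.2%, 75.5% and 63.9% of genes tested were called for TGFB1 on day 7 without irradiation, on day 7 with irradiation and on day 11. For the interactions, 53.1% (irradiation) and 64.5% (day) of genes tested were called. Of the 7 listed members, 2 passed the mean of 1 FPKM and were called without irradiation, 3 passed and 2 were called on day 7 with irradiation, and 2 passed and 1 was called on day 11. Both Sprr1a and Sprr2f were called in both interactions, although the Sprr1a day term was not called in 5 of 12 fits that left out 1 library.

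The remaining members were near 0 FPKM. Sprr2a2 reached 17.6 FPKM in 1 library, TGFB1 replicate 3 of the irradiated day 7 organoids, while the other TGFB1 libraries of that group were at 0.964 and 0.942 FPKM and vehicle at 0.483 to 0.632 FPKM. It was fitted for TGFB1 only in that condition, which it entered through this library, with a log2 change of 1.42 ± 1.07 (SE). Its differences of log2 changes, 1.46 ± 1.07 (SE) for irradiation and -0.97 ± 1.06 (SE) for day, include the same library and were not called. On day 11 Sprr2a2 was at 0.0965, 0.152 and 0.0686 FPKM with vehicle and at 0.517, 0.456 and 0.566 FPKM with TGFB1, all below 1 FPKM. Without irradiation it stayed between 0.134 and 0.269 FPKM, with overlapping groups. Sprr2a1 was at most 0.228 FPKM and above 0 in 17 of 18 libraries.

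Sprr2h was at most 0.760 FPKM and above 0 in 11 of 18 libraries, Sprr2b was at most 0.366 FPKM and above 0 in 10, and Sprr2d was above 0 in 1, at 0.110 FPKM. TGFB1 libraries all lay above vehicle libraries for 3 of the 7 members on day 7 without irradiation, 5 of 7 on day 7 with irradiation and 2 of 7 on day 11. Among genes above 0 in any library, that share was 27.9%, 30.7% and 28.6%. The other 8 Sprr rows were below 1 FPKM as well: Sprr2g reached 0.608 FPKM, Sprr1b, Sprr2e, Sprr2j-ps and Sprr2k stayed at or below 0.285 FPKM, and Sprr2i, Sprr3 and Sprr4 were listed at 0 in all 18 libraries. Reads of near-identical copies can be lost or split when rows are made, so the levels of Sprr2a1 and Sprr2a2 are uncertain.

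Most of the tested genes for cornified envelope proteins, the partners of SPRRs in cross-linking, rose with TGFB1. Of 45 cornified envelope genes listed, 12, 13 and 14 passed the mean of 1 FPKM in the 3 conditions (day 7 without irradiation, day 7 irradiated, day 11), and 11, 13 and 12 of these rose with TGFB1 by limma. Over all genes tested, 33.3%, 35.8% and 32.3% rose and 34.9%, 39.7% and 31.6% fell. For every list here the mean covers both arms. A gene low with vehicle could pass only by being high with TGFB1, which set its direction. In the list 1 gene fell without irradiation and 0 elsewhere, and the median log2 changes were 0.86, 1.14 and 0.92 against -0.02, -0.03 and 0.01 over all genes tested. Anxa1, annexin A1, rose from 19.8 to 341 FPKM without irradiation, with a log2 change of 4.04 ± 0.04 (SE, limma adjusted p = 6.91e-13), and by 3.75 and 4.59 in the irradiated conditions. Pkp1, a desmosomal plaque protein, rose from 9.29 to 43.1 FPKM without irradiation. Cst6, a cystatin that inhibits proteases acting on transglutaminases, rose by a log2 change of 2.76 on day 7 after irradiation. Lor, loricrin, the main envelope protein of skin, was at 0.513 FPKM with vehicle and 11.0 FPKM with TGFB1 on day 11. Cnfn, cornifelin, was at 0.682 and 9.57 FPKM there. On day 11 both passed the mean of 1 FPKM only through the TGFB1 libraries.

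Of the 9 transglutaminase genes, 2, 2 and 3 passed the mean of 1 FPKM. Tgm2, tissue transglutaminase, rose from 47.0 to 92.2 FPKM without irradiation (log2 change 0.96 ± 0.03 SE) and fell from 70.2 to 34.1 FPKM on day 11 (log2 change -1.02 ± 0.11 SE). On day 7 after irradiation 0 of 2 were called. Tgm1, the enzyme that cross-links envelopes in skin, entered the test only on day 11, through its TGFB1 libraries. It was at 0.147 FPKM with vehicle and 7.61 FPKM with TGFB1 there, with a log2 change of 2.89 ± 0.15 (SE).

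Among 24 transcription factors reported to act on Sprr promoters, 22 were tested in each condition, and 15, 17 and 16 rose while 1, 2 and 3 fell. The medians were 0.56, 0.70 and 0.53. Fosl1, which encodes the AP-1 subunit FRA1, had log2 changes of 2.25, 2.67 and 3.14. Without irradiation it was at 0.774 FPKM with vehicle and 7.42 FPKM with TGFB1, and entered the test only through its TGFB1 libraries. Grhl3, a grainyhead factor of skin barrier formation, had log2 changes of 2.24, 2.68 and 2.60. Fos rose on day 7 in both conditions (1.76 and 2.87), and Jun was among the leading genes on day 11 (1.56).

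Squamous epithelium genes, a marker list of another cell type, rose in the same libraries. Of 18 listed, 5, 6 and 7 passed the mean of 1 FPKM, and 5, 5 and 6 rose while 0, 1 and 0 fell, with medians of 2.34, 3.20 and 2.24. Anxa8 had log2 changes of 4.64, 4.82 and 5.51. Krt7, a keratin of simple epithelia, rose from 264 to 1335 FPKM without irradiation. Krt4, a keratin of internal stratified epithelia, was at 0.752 FPKM with vehicle and 89.3 FPKM with TGFB1 on day 11. It entered that test only through its TGFB1 libraries. Krt7 made up most of the sums that follow, with means of 264 and 1335 FPKM (vehicle and TGFB1) without irradiation and 276 and 1693 FPKM on day 7 with irradiation. The summed level of a 10-gene squamous marker list was 285 to 309 FPKM with vehicle and 1508 to 1614 FPKM with TGFB1 without irradiation, 288 to 296 and 1989 to 2157 FPKM on day 7 with irradiation, and 300 to 389 and 1691 to 1945 FPKM on day 11. Villus tip markers, the site where Sprr2a is known, summed to 250 to 253 and 379 to 414 FPKM, to 1683 to 1844 and 4144 to 4249 FPKM, and to 185 to 368 and 225 to 271 FPKM in the same order. Krt5 and Trp63, which define basal cells of stratified epithelia, reached at most 0.588 and 0.177 FPKM, and Krt13 at most 0.131 FPKM. Of the 10 squamous markers, 3, 2 and 3 were at 0 in all vehicle libraries and 1, 1 and 2 in all TGFB1 libraries. The part of these cell types in the Sprr values was not tested.

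Of 12 genes of the neighbouring S100 family, 10 were tested in each condition, 9, 9 and 6 rose and 0, 0 and 1 fell, with medians of 1.31, 1.47 and 0.84. S100a6, a calcium-binding protein, rose from 177 to 1328 FPKM without irradiation and had log2 changes of 2.90, 3.21 and 3.19. S100a14 rose from 57.3 to 377 FPKM without irradiation and from 20.2 to 143 FPKM on day 7 after irradiation.

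Likeness of pattern was measured over the 18 libraries as Pearson's r of log2(FPKM + 1), after subtraction of each table's mean, over 10821 genes. The libraries share the TGFB1 treatment, so high values are common and carry no p. Nearest to Sprr1a were Tubb2b (0.994), Fam107b (0.989), Ppp2r2a (0.986), Ttc9 (0.986) and Ctgf (0.986). Nearest to Sprr2f were Lgals1 (0.951), Tnk1 (0.948), Ass1 (0.943), Mapt (0.941) and Sh3bgrl3 (0.940). Sprr1a and Sprr2f had an r of 0.672 with each other.

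In single cells the family looked different, with abundant UMIs in the rows of Sprr2a1, Sprr2a2 and Sprr2a3, of which the bulk tables held little or no signal. Their UMIs are summed here, since reads that fit several copies were divided among the rows and left fractional counts. The sum was at 693 CPM at 0 h, 1539 at 6 h, 4976 at 15 h and 5852 at 24 h, so it was higher at each later time. Ranked against single genes, the sum of these rows was 8th in the library at 24 h and 216th at 0 h. The folds over 0 h were 2.22, 7.18 and 8.45 (the last with a 95% interval of 8.32 to 8.57 for counting error only). With 1 library per time there is no replicate check. Among genes with at least 10 CPM in either library, 1.25%, 2.67% and 5.41% were at least 2-fold higher at 6, 15 and 24 h, and 0.0232%, 0.286% and 0.72% at least 8-fold.

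Why Sprr2a rows hold so little in the bulk tables and so much in the cells was not tested. The assays differ in day, in annotation, in how reads of several origins were counted and, where TGFB1 was given, in dose (2 against 1 ng/mL). The gap was also present with vehicle alone. The sum was at 693 CPM in the 0 h library. In the irradiated day 7 bulk libraries with vehicle, Sprr2a1 and Sprr2a2 had means of 0.0561 and 0.547 FPKM.

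Most Sprr2a UMIs were fractional. The share of UMIs in fractional entries was 74.6%, 73.0%, 82.8% and 88.3% at 0, 6, 15 and 24 h, against 9.11%, 8.64%, 9.33% and 12.0% over all genes of those libraries. In the sorted crypt cells it was 91.9% without irradiation and 84.5% and 85.1% after irradiation, against 14.4%, 22.0% and 20.6% over all genes. Sprr1a and Sprr2f had a fractional share of 0 in every library where they had a UMI. The summed count was whole, within 0.01, in 93.9 to 98.4% of the cells with any, and in 97.9 to 100% once Sprr2b was added. Sprr2a1 took 30.8 to 51.0% of the sum, Sprr2a2 44.3 to 61.5% and Sprr2a3 2.86 to 7.77%, and these shares depend on how the counting program divided shared reads. Whole entries alone gave 176, 415, 855 and 684 CPM at 0, 6, 15 and 24 h, so the rise from 15 to 24 h did not appear in them, and the fold of 24 h over 0 h was 3.89. An entry that holds any fraction is left out with all its UMIs. The measure can therefore lose more where a cell holds more Sprr2a UMIs, so it cannot decide whether the sum rose from 15 to 24 h.

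**Figure D2:**
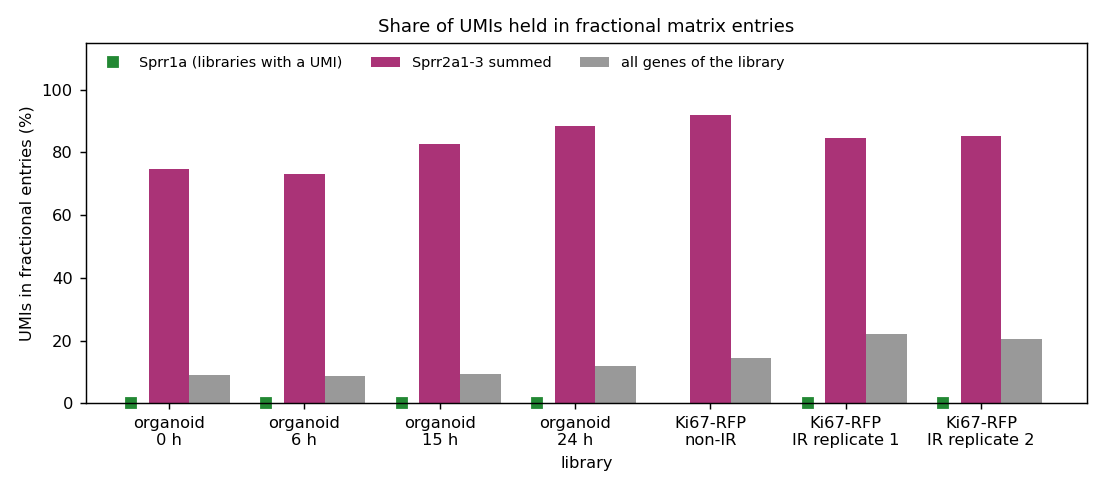
Share of UMIs in fractional entries (percent) in the 7 single-cell libraries, for the Sprr2a1-3 sum, for all genes and for Sprr1a. The Sprr2a sum lies at 73.0 to 91.9%, all genes at 8.64 to 22.0%, and Sprr1a at 0.

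Sprr1a was detected in few cells. Its folds over 0 h were smaller than its bulk folds, which came from another TGFB1 dose, other days and replicate libraries. Its level was 17.3, 10.9, 17.6 and 28.1 CPM at 0, 6, 15 and 24 h, which is 0.629, 1.02 and 1.63 times the 0 h value. At 24 h, 1 cell held 150 of the 860 Sprr1a UMIs. Cells with at least 1 Sprr1a UMI were 3.38%, 2.22%, 5.47% and 8.84% of the library. After each cell was thinned to 2000 UMIs these shares were 2.01%, 1.19%, 2.42% and 2.98%. UMIs come from the 3′ end and are not divided by gene length, so they are not compared with the FPKM levels.

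Sprr2f had 35, 30, 22 and 86 UMIs in the 4 organoid libraries, or 1.28, 0.925, 0.836 and 2.81 CPM. At 24 h, 72 of the 86 UMIs came from 1 cell, so the higher value there rests on that cell. Sprr2b was at 0.563, 0.930, 2.47 and 1.20 CPM, nearly all in fractional entries (96.7 to 100% in these libraries). Sprr2h had 1 UMI at 0, 15 and 24 h each and 0 elsewhere. Sprr2d, whose promoter shares the AP-1, octamer and TATA letters with Sprr2f, had 0 UMIs in all 7 libraries, which allows up to 0.0925 to 0.243 CPM (3 counts). Of the other family rows, Sprr2i had 4 UMIs in the second irradiated crypt library, and Sprr1b, Sprr2c-ps, Sprr2e, Sprr2g, Sprr2j-ps, Sprr2k, Sprr3 and Sprr4 had 0 UMIs in all 7.

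**Figure D3:**
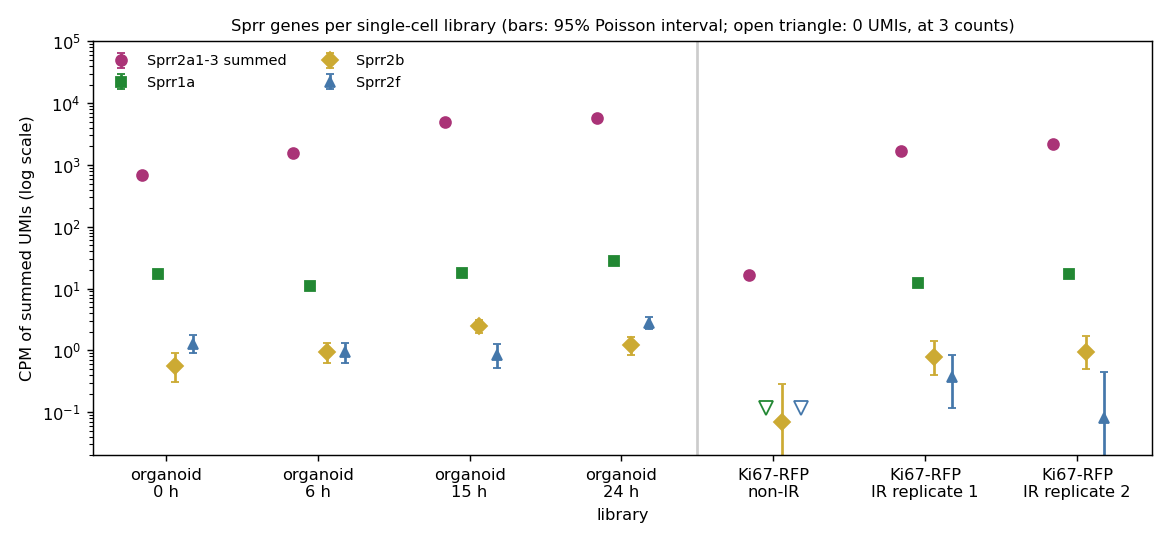
Level in CPM (log axis) of the Sprr2a1-3 sum, Sprr1a, Sprr2b and Sprr2f in the 4 organoid and 3 sorted crypt libraries; open triangles mark 0 UMIs, drawn at the value of 3 counts. The Sprr2a sum goes from 693 to 5852 CPM in organoids and from 16.3 to 1673 and 2223 CPM in crypt cells.

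The rise of Sprr2a was broad across cells and also concentrated in a few. Cells with at least 1 Sprr2a UMI were 33.6%, 72.7%, 93.3% and 98.3% of the library at 0, 6, 15 and 24 h, and 15.1%, 50.4%, 76.4% and 82.5% after thinning to 2000 UMIs. The top 10% of cells held 95.4%, 75.1%, 69.5% and 67.7% of the Sprr2a UMIs. At 0 h 16 cells held 50% of them, and at 24 h 91 cells did. In the highest cell of each library, Sprr2a was 9.31%, 11.4%, 19.9% and 17.1% of its UMIs.

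Cells with Sprr1a also carried Sprr2a at high levels. At 0 h, 76.8% of cells with Sprr1a had Sprr2a, against 32.1% of the other cells, with median depths of 8609 and 8194 UMIs. These shares were 93.7% and 72.2% at 6 h, 97.5% and 93.0% at 15 h, and 98.5% and 98.3% at 24 h, so detection alone hardly separated the cells by then. Mean Sprr2a per 10000 UMIs was 70.7 in cells with Sprr1a and 4.54 in the others at 0 h, 104 and 13.2 at 6 h, 159 and 42.2 at 15 h, and 144 and 48.9 at 24 h.

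The cells of the 4 organoid libraries were clustered on 2000 variable genes, with all Sprr genes left out. Cluster values are descriptions. The makeup of the libraries shifted with time. Cluster 4, led by Akr1c14, Ugt2b36 and Gstm3, was 35.3%, 2.69%, 0.346% and 0.0451% of cells at 0, 6, 15 and 24 h. Cluster 9, led by small non-coding RNAs and with a median of 5761 UMIs at 24 h, was 2.05%, 0.957%, 4.67% and 25.7%, and held 21.3% of Sprr1a and 7.06% of Sprr2a UMIs at 24 h. The part of these shifts in the library levels was not tested. Cluster 8, 783 cells led by Ada, Tm4sf4, Anxa1, Il1rn, Lgals3, Anxa10, Anxa8, Ly6d, Msln and Cwh43, held 57.0% of all Sprr2a UMIs, 76.2% of Sprr1a UMIs and 162 Sprr2f UMIs (93.6%), in 6.35% of the cells. It made up 3.92%, 3.99%, 7.16% and 13.1% of the cells at 0, 6, 15 and 24 h. Within it Sprr2a was at 13931, 15805, 29629 and 19728 CPM, so it was already high with vehicle, while Sprr1a went down from 343 through 209 and 140 to 112 CPM. Cluster 8 held 84.2% of the Sprr2a UMIs of the library at 0 h and 46.5%, 53.5% and 59.7% at the later times.

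Outside cluster 8 Sprr2a was at 114, 862, 2541 and 2867 CPM, a 25.1-fold difference between 24 h and 0 h. Sprr1a outside it was at 3.02, 1.45, 5.56 and 10.1 CPM. Per UMI of the 10 leading genes of cluster 8, Sprr2a UMIs numbered 2.99, 3.40, 3.72 and 4.18 inside the cluster and 1.51, 8.34, 13.9 and 9.54 outside it. The ratio outside the cluster was above the ratio inside it at 6, 15 and 24 h and below it at 0 h. The leading genes were chosen for being high inside the cluster, and the part of RNA released from other cells was not tested.

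Every cluster with at least 50 cells at both 0 and 24 h was higher at 24 h. In stem-like cluster 3, led by Cym, Fstl1, Gkn3, Lgr5 and Olfm4, Sprr2a was at 42.1, 621, 2527 and 2841 CPM, 67.5-fold higher at 24 h than at 0 h. In the dividing cells the folds were 55.2 (cluster 2, led by H2ac24, Pclaf and Pbk) and 35.4 (cluster 1, led by Ube2c, Birc5 and Cdc20). Cluster 0, led by the secretory genes Tff3, Afp and Reg4, differed 25.2-fold. The difference was smaller in cluster 7 (7.40-fold), led by Slc5a4b and Reg3a and high in enterocyte genes, and in cluster 9 (8.28-fold), led by small non-coding RNAs. Cluster 8 had the lowest fold of the 7, 1.42, from the highest level at 0 h.

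**Figure D4:**
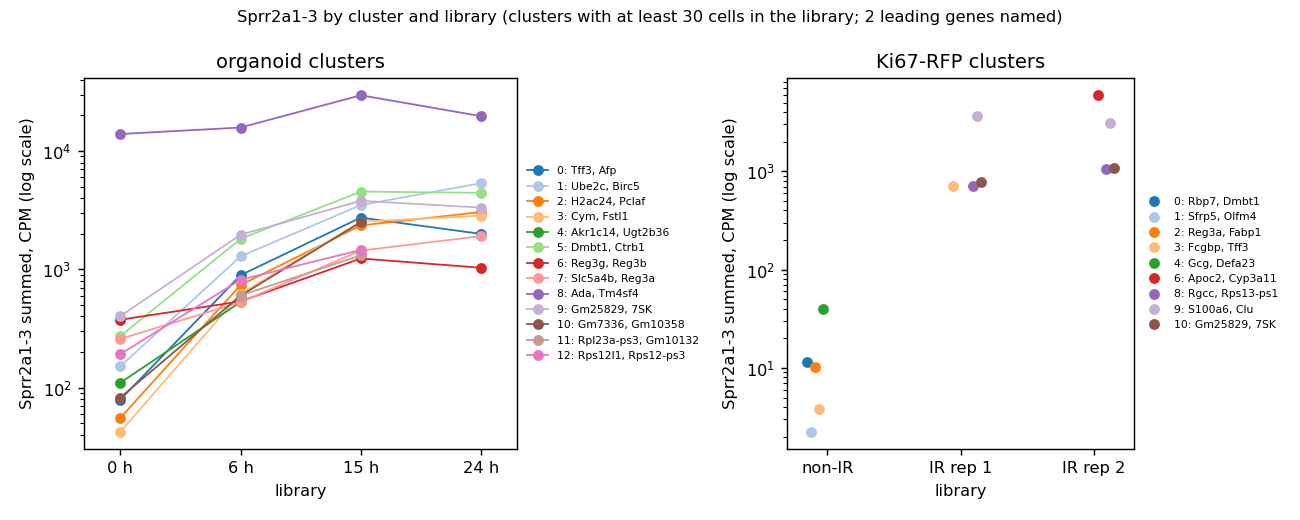
Sprr2a1-3 summed level in CPM (log axis) by cluster and library, for clusters with at least 30 cells in the library, with organoid and sorted crypt clusters in separate panels. Organoid cluster 8 lies at 13931 to 29629 CPM at every time, and stem-like cluster 3 goes from 42.1 to 2841 CPM.

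In the sorted Ki67-RFP+ crypt cells, Sprr2a was nearly absent without irradiation and abundant at 56 h after 12 Gy. The sum was at 16.3 CPM in the non-irradiated library and at 1673 and 2223 CPM in the irradiated libraries, 103-fold (95% counting interval 93.2 to 113) and 136-fold (124 to 151) higher. Whole entries alone gave 1.32, 259 and 331 CPM, or 196-fold and 251-fold, both outside these intervals. The irradiated libraries lay near each other relative to that difference, but 1 control library gives no spread. Among genes with at least 10 CPM in either library, 11.3% and 12.2% were at least 2-fold higher and 1.43% and 1.76% at least 8-fold. Ranked against single genes, the Sprr2a sum was 6697th by abundance without irradiation and 105th and 74th after it. Cells with a Sprr2a UMI were 5.04%, 95.4% and 97.4% of the libraries, and 1.03%, 62.7% and 74.8% after thinning to 2000 UMIs.

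Sprr1a had 0 UMIs in 1846 non-irradiated crypt cells and was at 12.5 and 17.0 CPM after irradiation, at least 107-fold and 146-fold above the level of 3 counts. Cells with Sprr1a were 6.12% and 8.01% of the irradiated libraries, and 1.53% and 2.86% after thinning. The highest cell held 46 of the 171 Sprr1a UMIs of the first irradiated library and 53 of the 210 of the second. Sprr2f had 0, 5 and 1 UMIs, and Sprr2b was at 0.0679, 0.767 and 0.952 CPM. All cells with Sprr1a in the irradiated libraries also had Sprr2a, as did 95.1% and 97.2% of the other cells. Median depths were 19528 and 20090 UMIs in cells with Sprr1a, against 14105 and 12945 in the others.

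Irradiated and non-irradiated crypt cells largely fell into different clusters, so few levels could be compared within 1 cluster. Cluster 9, led by S100a6, Clu, Il1rn and Anxa8 and found only after irradiation (33.7% and 47.5% of cells), held 69.5% of Sprr2a and 91.1% of Sprr1a UMIs, with Sprr2a at 3671 and 3117 CPM. Clusters 8 and 10, likewise only from irradiated libraries, were at 702 and 1063 CPM and at 786 and 1068 CPM. Clusters 0 and 1, only from the non-irradiated library, were at 11.6 and 2.23 CPM. The goblet-like cluster 3, present in all 3 libraries with 69, 38 and 20 cells, was at 3.84 CPM (3 UMIs) without and at 704 and 588 CPM after irradiation.

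Cells with villus enterocyte genes differed in Sprr2a. Cluster 2, led by Reg3a, Fabp1 and Reg1 and high in enterocyte markers, had 444 cells in the non-irradiated library. These were at 10.1 CPM, with a UMI in 7.43% of them. The 2 cells of cluster 2 from the second irradiated library were at 7106 CPM. Cluster 6, led by Apoc2, Cyp3a11 and Apoa4, had 3 non-irradiated cells and 9 and 33 irradiated cells, at 6230, 5374 and 5931 CPM. Those 3 cells held 223 Sprr2a UMIs, 53.1% of those of the non-irradiated library, and 174 of them came from 1 cell. Without cluster 6 the libraries were at 7.67, 1653 and 2137 CPM, 216-fold and 279-fold apart. Cells led by the lymphocyte genes Gzma and Ccl5 numbered 2, 4 and 2 in the 3 libraries and held 0, 3 and 3 Sprr2a UMIs. Their levels were 0, 137 and 214 CPM, with counting intervals of 0 to 234, 28.2 to 400 and 44.2 to 626 CPM. These cells and UMIs are too few to set a level of stray signal. Of these cells, 0%, 50% and 100% had a UMI. Their median depths were 7894, 5553 and 7004 UMIs, against 11969, 14399 and 13500 over the libraries.

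Markers of other cell states also differed between the single-cell libraries, but not always in step with Sprr2a. The summed 10-gene squamous marker level was 96.9, 203, 395 and 618 CPM at 0, 6, 15 and 24 h, and 51.9, 266 and 307 CPM in the crypt libraries. A list of regenerative markers, of which Clu and Anxa1 are members, summed to 287, 243, 713 and 1392 CPM and to 23.6, 541 and 773 CPM. The regenerative sum was lower at 6 h than at 0 h, while Sprr2a was higher. Villus tip markers summed to 1124, 1715, 2247 and 2239 CPM and to 220, 197 and 551 CPM. The part of these cell states in the Sprr values was not tested.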

How the data were processed

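Bulk RNA libraries (18) came as 3 tables of FPKM values, which the authors deposited; the submitters' processing notes name TopHat2 2.1.0 and Cuffnorm 2.2.1 and the builds mm9, GRCm39 and mm39, without saying which step used which. The 7 single-cell libraries came as matrices of expected counts that the authors deposited, with fractional entries where a read fits several genes; STARsolo and STAR 2.7.10a are named in the submitters' processing notes. Each FPKM table was fitted with limma 3.58.1 (trend, robust) in R 4.3.3 on log2(FPKM + 1), where the gene's mean reached 1 FPKM, with Benjamini-Hochberg adjustment over all genes tested and a threshold of 0.05. Interactions used 12 libraries. The log scale understates changes of low genes. No FPKM table gives read depth. The fit was tested on simulated data. Labels do not say whether replicates were separate cultures, so p-values measure the spread between these libraries only.

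Cells with at least 500 UMIs, 250 genes and at most 20% mitochondrial counts were kept; total UMIs per library, counts not rounded, give the CPM. Doublet calls marked 0.286 to 1.56% of cells and are removed only in an alternative. Clusters (scanpy 1.11.5, 30 components, 15 neighbours, resolution 0.6) were made for organoids and crypt cells apart. Intervals are exact Poisson at 95% and cover counting error only. A group in the single-cell data is 1 library or, after irradiation, 2, so no test was made.

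The text names all members, all other Sprr rows, of each list at most the 3 called genes with the largest change per condition, and the 5 genes nearest each of Sprr1a and Sprr2f in pattern. Members, lists and alternatives were chosen with earlier results of these data known. Same-numbered libraries did not pair: 2 of 9 pairs had a correlation over 0.1 (range -0.0856 to 0.213). The ATAC peak lists were not analysed here, because their build differs from that of the gene coordinates at hand. Promoter sequences are from RefSeq (GRCm38.p6).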

Additional observations from a re-analysis of the deposited data

Results flagged for a closer look

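The effect of TGFB1 differed between conditions for Sprr1a and Sprr2f, in the interaction terms of the limma model. Between irradiated and non-irradiated organoids on day 7, the difference of log2 changes was -1.18 for Sprr1a and -2.52 for Sprr2f. Between day 11 and day 7 after irradiation, it was 0.72 for Sprr1a and -2.13 for Sprr2f. These 4 values are descriptions, since the genes may have been chosen on them, and 53.1% and 64.5% of all genes tested had such a difference.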

How the results depend on the processing

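All alternatives of the limma fits (pseudocount 0.1, no filter on low values, quantile normalization, single libraries left out, the replicate block) kept the counts of called genes within 1.5 times and the sign of every Sprr1a and Sprr2f change. Leaving out single libraries gave 7218 to 7596, 8100 to 8265 and 6464 to 7591 called genes for TGFB1 in the 3 conditions, and 5683 to 5914 and 6937 to 7715 for the interactions. Replicate numbers as a block gave 7701, 8417 and 7351 called genes for TGFB1, and 5964 and 7396 for the interactions; the Sprr2f change on day 11 (-0.72) passed the threshold only with this block and without TGFB1 replicate 2 of day 11 (-1.04), and ranged from -1.04 to -0.38 when single libraries were left out. The Sprr1a day term missed the threshold without each of vehicle replicate 3 (0.67), TGFB1 replicate 1 (0.72) and TGFB1 replicate 2 (0.69) of day 7, and without TGFB1 replicates 1 (0.69) and 2 (0.67) of day 11; the cause was not tested.

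In single cells, whole entries alone gave Sprr2a levels of 176, 415, 855 and 684 CPM in organoids and 1.32, 259 and 331 CPM in crypt cells, with folds of 3.89, 196 and 251. This measure leaves out all UMIs of an entry that holds any fraction, so it depends on the counts per cell. Removal of called doublets gave 704, 1555 and 5016 CPM at 0, 6 and 15 h. An alternative chosen after seeing the data, without the cluster highest in Sprr2a, gave folds of 25.1, 216 and 279. Thinning to 1000 UMIs gave shares of cells with Sprr2a of 10.9%, 37.0%, 65.6% and 70.4%, and of 0.488%, 50.6% and 61.7% in crypt cells. Alternatives for ATAC regions were not run. Depth limits Sprr2d, Sprr2f, Sprr2b and Sprr2h, which had few UMIs.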
